A study of Sus scrofa with 15 samples.

Results

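The nuclear-encoded subunits of the respiratory chain and ATP synthase were followed in pig Longissimus muscle. Members were the array probes that carry the name of a subunit of complexes I to V or of cytochrome c, with assembly factors left out. A probe also had to be well above background on 7 or more of 15 arrays. Of 185 probes for 54 genes with such a name, 179 probes for 49 genes passed, out of 31989 tested probes and 4663 tested genes. They comprised 17 genes named for complex I, 3 for complex II, 4 for complex III, 11 for complex IV, 13 for complex V and CYCS. The rule itself uses names and background flags. The threshold cut between probes above background on 12 arrays and probes above it on 2, and 175 member probes were above it on all 15. NDUFB4, CYC1, COX7B, COX8C and ATP5C1 had only probes that failed it and are without a value here.

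The study compared pigs of lines divergently selected on residual feed intake (RFI), the feed eaten beyond the predicted needs of maintenance and growth. Muscle was taken at 20 kg body weight from 7 pigs of the low_RFI line (RFIneg) and 8 of the high_RFI line (RFIpl), all fed ad libitum, and each pig was hybridised to its own 1-colour Agilent array. The labels give no sex, litter, age or further treatment. Each line is a single selected population, so that selection and other differences between the lines cannot be told apart. The array names hold pig numbers that form separate runs, 1 to 8 (4 pigs of each line) and 55 to 62 (3 low_RFI and 4 high_RFI pigs). Both lines were present on each of the 4 slides. Between 61.7% and 79.4% of an array's spots exceeded the scanner software's background criterion, and saturation was not seen. Skeletal muscle markers were present, with 15 of 18 tested and levels above 9 for the muscle actin ACTA1 and the creatine kinase CKM in both lines. A level is the log2 processed signal less the 75th percentile of that array, so 0 marks that percentile and a negative level a dimmer spot.

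The respiratory chain passes electrons from NADH, at complex I, and from succinate, at complex II, through ubiquinone to complex III, then through cytochrome c to complex IV, where oxygen is reduced. Complexes I, III and IV pump protons across the inner mitochondrial membrane, and complex V lets them flow back to make ATP. Most subunits are encoded in the nucleus and the rest in mitochondrial DNA. Several subunits of complex IV exist in a form found mainly in heart and skeletal muscle and a form found in many tissues.

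A few probes carry the patterns described further on, and 30-base stretches of them are shown, 5′ to 3′, as the array files give them. The first set names some isoform genes of complex IV that did and did not follow the other subunits. Capitals there mark AATAAA or ATTAAA, the letters of the common polyadenylation signals, where the probe of highest level holds them.
COX7A1: tcaacaagcatcAATAAAtgttctggcttc
COX7A2: ctgataactgagttcttctctggggatcaa
COX6A1: cagtgatgaccattatactgatcttccaac
COX8H: actggagacgggATTAAAgcttccttactc
COX8A: ctcccttgcaacAATAAAgtctatttaaac

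The second set shows pairs of overlapping probes of 1 gene that differed across the pigs, in pattern for CYCS and in spread for NDUFB9. For CYCS, capitals mark the bases at which probe 2 departs from probe 1 and lower case marks identity. For NDUFB9, capitals mark the 3′ bases that the other probe does not share.
CYCS probe 1: gctgtaccAtCagcacagatTtgtaaatta
CYCS probe 2: gctgtaccGtGagcacagatCtgtaaatta
NDUFB9 probe 1: aggacatacgcttgccctaataaagtaacC
NDUFB9 probe 2: gcttgccctaataaagtaacTCAATATGGT

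AATAAA was searched in the 60-base probes on both strands, with overlaps with other motifs not considered. It stood in the probe as printed in 37 of 179 member probes (20.7%) and in 9.60% of all 43603 non-control probes. On the other strand it stood in 8 member probes (4.47%) and in 4.17% of all probes. Each of the 30-base stretches occurred in 1 probe of the array.

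Across the 15 pigs most of the subunit genes moved up and down together. For each pig the relative level is the median over the 49 members of the gene's level minus its mean over all pigs. It ran from -0.35 in replicate 5 of high_RFI to 0.21 in replicate 2 of high_RFI, a 1.47-fold span. Within low_RFI the lowest, median and highest values were -0.30, 0.01 and 0.15, and within high_RFI -0.35, 0.05 and 0.21. The 3 lowest pigs were replicate 5 of high_RFI and replicates 3 and 1 of low_RFI, and the lines overlapped over nearly their whole range. The median Pearson correlation between 2 member genes over 15 pigs was 0.55, against 0.01 between any 2 of 4600 genes with a value in every pig. It was 0.48 within a complex and 0.56 between complexes. Within single complexes it was 0.23 for complex I, 0.69 for II, 0.78 for III, 0.38 for IV and 0.66 for V. These correlations are descriptions. All genes of an array share its RNA, labelling and scaling, and in whole muscle fewer mitochondria-rich cells and less RNA per cell cannot be told apart.

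**Figure D1:**
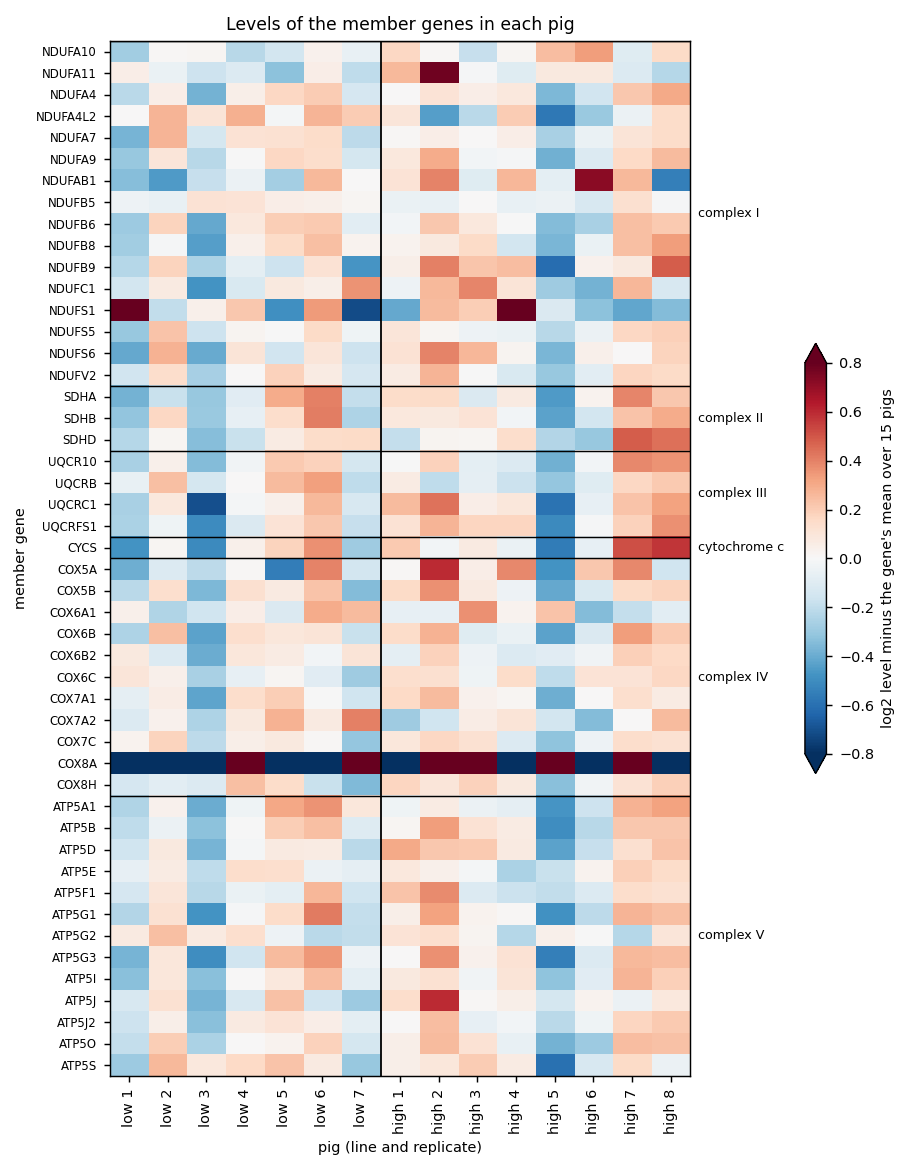
Heat map of the log2 level of 48 of the 49 member genes (rows, by complex) in each of 15 pigs (columns, 7 low_RFI then 8 high_RFI), as the difference from the gene's mean over all pigs. Most rows are blue in replicate 3 of low_RFI and replicate 5 of high_RFI and red in replicates 7 and 8 of high_RFI, while COX8A, NDUFS1 and a few others differ from that pattern. Colours end at 0.8 in either direction.

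Of the 49 members, 39 had a correlation of 0.5 or more with the median of the other members, and 17 of them 0.9 or more. Among genes that are no members, 7.71% of 4551 reached 0.5. The lowest member above that limit stood at 0.55 and the highest below it at 0.30. All 3 genes of complex II, all 4 of complex III and CYCS lay above it, as did 12 of 13 in complex V, 11 of 17 in complex I and 8 of 11 in complex IV. The highest values were those of ATP5G1, which encodes subunit c of the ATP synthase ring, at 0.97, of the complex I subunit NDUFA9 at 0.96 and of UQCRC1, a core protein of complex III, at 0.96. NDUFA4, named for complex I and now placed in complex IV, stood at 0.95 and the catalytic ATP synthase subunit ATP5B at 0.95. Within the runs of pig numbers UQCRC1 gave 0.96 over pigs 1 to 8 and 0.97 over pigs 55 to 62, and ATP5G1 gave 0.98 and 0.97.

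Some isoforms of complex IV separated in this respect. COX6B and COX6B2, also tested, did not separate at the limit of 0.5, since each had a correlation at or above it. COX7A1, the heart and muscle form of subunit 7a, correlated with the other members at 0.86, and COX7A2, its form in many tissues, at 0.30. COX8H, the heart and muscle form of subunit 8, stood at 0.63. COX6A1, the form of subunit 6a in many tissues, stood at -0.16; its muscle counterpart COX6A2 was not analysed here. Each value was similar within the runs for the muscle forms, with COX7A1 at 0.90 and 0.87 and COX8H at 0.61 and 0.75. COX7A2 gave 0.23 and 0.34 and COX6A1 0.07 and -0.33. Differences between these correlations were not tested. In low_RFI the lowest, median and highest levels of COX7A1 were 7.67, 8.09 and 8.29, and in high_RFI 7.70, 8.14 and 8.34. COX7A2 had, in the same order, 4.997, 5.32 and 5.65 in low_RFI and 4.90, 5.17 and 5.50 in high_RFI. The lines overlapped for both genes. All 5 COX7A2 probes had a positive line difference, from 0.09 to 0.15, and both COX7A1 probes a negative one.

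**Figure D2:**
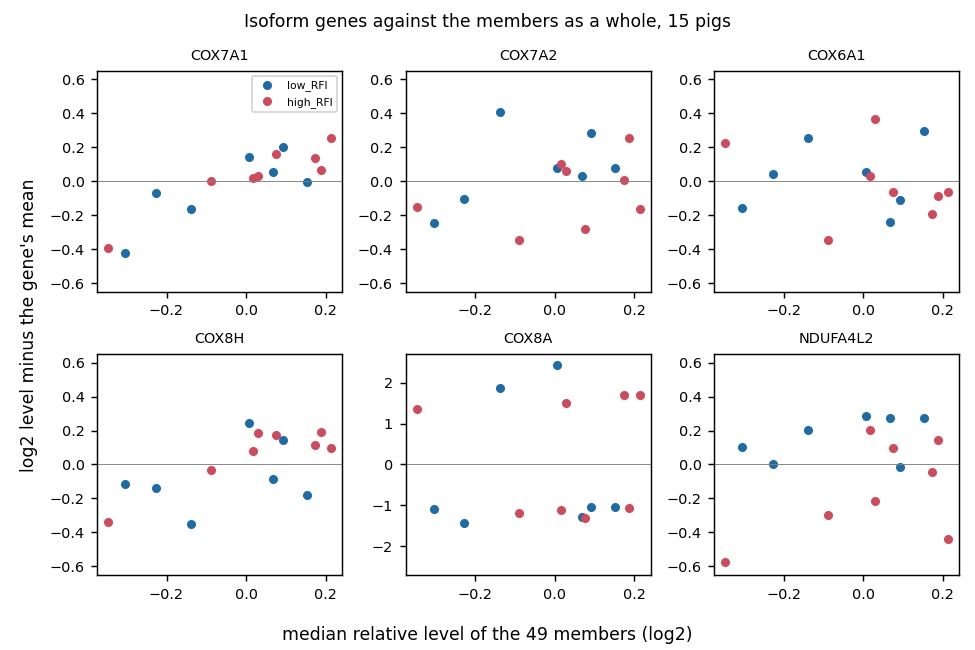
Level of 6 genes in each of 15 pigs, as the log2 difference from the gene's mean, against the median relative level of the 49 members in the same pig. COX7A1 and COX8H line up with the members, COX7A2, COX6A1 and NDUFA4L2 scatter, and COX8A, on a wider vertical scale than the rest, falls into separate upper and lower sets.

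Subunit c of the ATP synthase, which forms the proton-carrying ring, is encoded by several genes with the same mature protein, and these also parted. ATP5G1 and ATP5G3 correlated with the other members at 0.97 and 0.95, and ATP5G2 at -0.11. ATP5G1 ran from 7.32 to 8.21 in low_RFI with a median of 7.79, and from 7.31 to 8.12 in high_RFI with a median of 7.84. ATP5G2 ran from 7.43 to 7.89 with a median of 7.71 in low_RFI, and from 7.41 to 7.78 with a median of 7.67 in high_RFI. The SD over all pigs was 0.27 for ATP5G1 and 0.15 for ATP5G2.

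The other members below 0.5 were NDUFA4L2, NDUFA11, NDUFAB1, NDUFB5, NDUFA10 and NDUFS1 of the complex I names, and COX8A. Signal strength moved with this: 6 of the 7 members with a mean level below 0 were among the 10 below 0.5. Its part in the low correlations was not tested. The genes listed here each rested on 1 probe, named from its description except for NDUFAB1. In some genes a description-named probe read far below a symbol-named one, as in ATP5B (-1.89 and 8.20) and SDHB (-3.85 and 6.91). In COX6B it read 6.58, beside 3.61 and 7.11 at symbol-named probes. Whether the dim probes give the level of their gene was not tested. NDUFB5 had the narrowest spread of all members, from 4.07 to 4.33 over the 15 pigs with an SD of 0.08. NDUFS1, which carries iron-sulfur clusters of complex I, had a probe above background on 12 arrays and ran from -5.40 to -3.51.

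**Figure D3:**
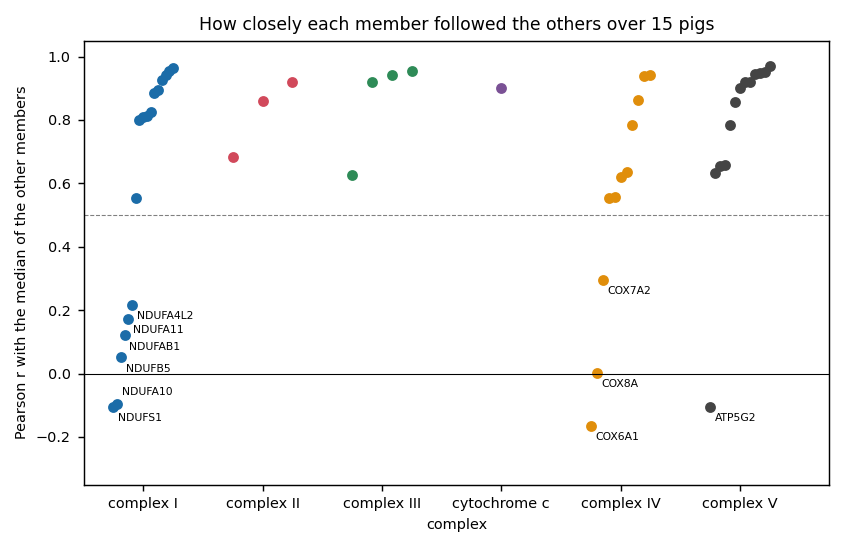
Pearson correlation over 15 pigs between each member's level and the median relative level of the other 48 members, by complex, with 1 point per gene. Points above the dashed line at 0.5 number 39, and the 10 genes below it are named.

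COX8A, the form of subunit 8 found in many tissues, split the pigs into separate sets without regard to line. Its level was 2.18 and 1.62 in replicates 4 and 7 of low_RFI. It was 1.47, 1.26, 1.11 and 1.46 in replicates 2, 3, 5 and 7 of high_RFI. The other 5 low_RFI pigs read -1.67, -1.53, -1.32, -1.28 and -1.28, and the other 4 high_RFI pigs -1.55, -1.34, -1.43 and -1.31. No pig lay between -1.28 and 1.11, a 5.23-fold gap. The 6 upper pigs came 3 from each run and lay on 3 of the 4 slides (0, 2, 1 and 3 on slides 1 to 4). With 3 or more pigs on each side, a gap as wide was seen in 1 other of 4600 genes, ATP6V1C2, a gene singled out after its values were seen. The next widest in a member was 0.23, in ATP5I. COX8A was measured by 1 probe, the stretch printed above, and the other tested probe most like it correlated with it at 0.84. The upper set held 2 of 7 low_RFI pigs and 4 of 8 high_RFI pigs, and the line difference was -0.43 ± 0.73 SE (limma adjusted p = 0.982). It ran from -0.87 to -0.21 when single pigs were left out and was 0.17 with array weights.

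The question the design puts is whether the lines differ. None of the 49 members passed limma's test at an adjusted p under 0.05, and 1 gene of 4663 did (0.0214%), the regulator MTERFD1, whose call was lost under 17 of 29 alternatives. At an unadjusted p under 0.05 there was 1 member, NDUFA4L2, against 7.12% of all genes. Over single probes none of 31989 passed, and the trended, robust fit called no member. No member had lines that did not overlap, against 0.107% of all genes. Most estimates nonetheless lay on the side of high_RFI, in 41 of 49 members against 44.9% of all genes, with a median log2 difference (low_RFI minus high_RFI) of -0.07 against 0.02 over all genes. Over probes it was 144 of 179 member probes, against 46.1% of all probes. With normexp background correction the count was 28 of 49 members with a median of -0.02. There the share of all genes was 55.5% and their median also -0.02. Members move together, so their estimates are not independent.

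NDUFA4L2, a relative of NDUFA4 known as a gene induced by low oxygen, had the smallest p. Its level was -2.23, -2.01 and -1.92 (lowest, median, highest) in low_RFI and -2.78, -2.34 and -2.01 in high_RFI. Low_RFI pigs were higher in 48 of 56 pairs, with overlap between the lines. The difference was 0.30 ± 0.12 SE, 1.23-fold, with a limma adjusted p of 0.616. With normexp background correction it was 0.12.

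For complex I, 15 of 17 estimates lay on the side of high_RFI, with a median of -0.07. NDUFAB1, the mitochondrial acyl carrier protein, gave -0.28 ± 0.16 SE, and NDUFA10 -0.17 ± 0.09 SE. NDUFA10 ran from -1.14 to -0.83 in low_RFI and from -1.05 to -0.53 in high_RFI, so the lines overlapped between -1.05 and -0.83. For complex II, succinate dehydrogenase, SDHA, SDHB and SDHD gave -0.12, -0.06 and -0.10, each with an SE of 0.13 or 0.14. SDHA had levels of 4.87, 5.07 and 5.65 (lowest, median, highest) in low_RFI and 4.79, 5.36 and 5.64 in high_RFI, which spans nearly the same range. Its difference ran from -0.20 to -0.07 with single pigs left out and was -0.06 with normexp background correction.

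For complex III the median was -0.14. UQCRFS1, the Rieske iron-sulfur protein, had lowest, median and highest levels of 5.28, 5.67 and 6.004 in low_RFI and 5.27, 5.96 and 6.15 in high_RFI. Its difference was -0.20 ± 0.13 SE, and UQCRC1 gave -0.19 ± 0.16 SE. UQCRB gave 0.11 ± 0.11 SE on the other side. CYCS, the mobile carrier between complexes III and IV, gave -0.18 ± 0.17 SE. With single pigs left out UQCRC1 ran from -0.29 to -0.09, UQCRB from 0.07 to 0.16 and CYCS from -0.27 to -0.11.

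For complex IV, 9 of 11 estimates lay on the side of high_RFI, with a median of -0.08. COX6C had lowest, median and highest levels of 6.94, 7.16 and 7.32 in low_RFI and 7.02, 7.34 and 7.39 in high_RFI. Low_RFI was higher in 8 of 56 pairs, with a difference of -0.15 ± 0.08 SE and a limma adjusted p of 0.771. COX5A gave -0.27 ± 0.16 SE, COX8H -0.13 ± 0.10 SE and COX7A2 0.14 ± 0.11 SE. For complex V, 10 of 13 lay on that side, with a median of -0.07. ATP5J, coupling factor 6, gave -0.19 ± 0.12 SE and ATP5D of the central stalk -0.15 ± 0.11 SE. The catalytic head subunits ATP5A1 and ATP5B gave 0.03 ± 0.13 SE and -0.07 ± 0.13 SE.

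**Figure D4:**
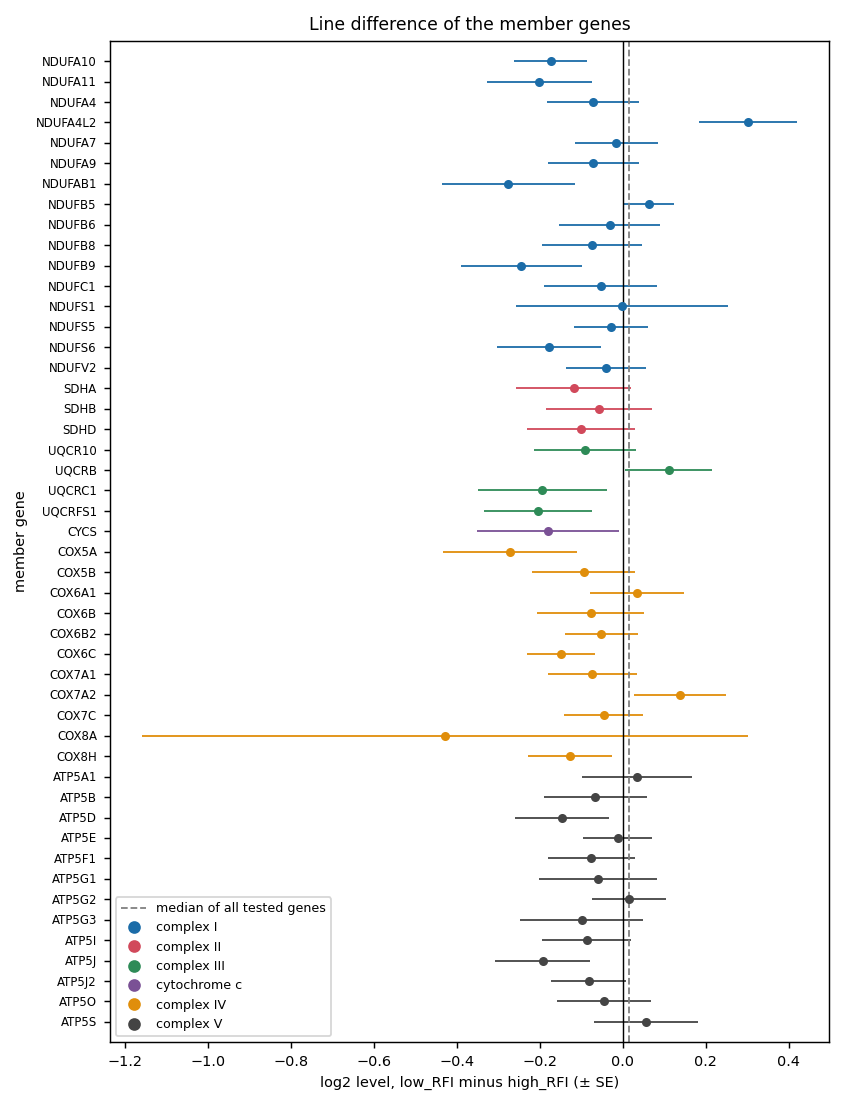
Log2 difference low_RFI minus high_RFI of 48 of the 49 member genes, as a point with its SE, coloured by complex, beside 0 (solid) and the median of all 4663 tested genes (dashed, 0.02). Most points lie left of 0 by less than 0.3, NDUFA4L2 lies farthest right, and COX8A has the widest SE.

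The side of the estimates differed between the runs of pig numbers. Over pigs 1 to 8 the median of the members was -0.18, with 43 of 49 on the side of high_RFI against 50.2% of all genes. Over pigs 55 to 62 it was 0.04, with 17 of 49 against 43.3% of all genes. With quantile normalization the later run gave -0.02 and 29 of 49. In pigs 1 to 8 the low_RFI animals had a relative level of -0.11 ± 0.18 (SD, n = 4), and the high_RFI animals 0.08 ± 0.09 (SD, n = 4). In pigs 55 to 62 it was 0.04 ± 0.15 (SD, n = 3) and -0.02 ± 0.25 (SD, n = 4). Without replicate 5 of high_RFI the later run gave -0.04 and 34 of 49, and without replicate 6 of low_RFI -0.01. Tested gene by gene, the line by run interaction passed for none of 4663 genes. At an unadjusted p under 0.05 it held 3 members, among them NDUFC1 and ATP5G3, against 5.55% of all genes. ATP5G3 gave an interaction of -0.59 ± 0.27 SE, with a limma adjusted p of 0.872. Between the runs themselves 3.65% of genes passed and none of the members, with 1 member at an unadjusted p under 0.05.

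By slide, the median of the members was 0.13 on slide 1, with 10 of 49 on the side of high_RFI against 42.3% of all genes. It was -0.13, -0.20 and -0.17 on slides 2 to 4, with 40, 45 and 42 of 49 against 52.8%, 46.0% and 46.0% of all genes. Slide 2 held 1 low_RFI pig and the other slides 2. Single pigs also moved the overall median of -0.07 by more than 1.5 times. It was -0.02 without replicate 3 of low_RFI, -0.05 without replicate 2 of high_RFI, -0.05 without replicate 7 of high_RFI, -0.11 without replicate 6 of low_RFI and -0.13 without replicate 5 of high_RFI.

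**Figure D5:**
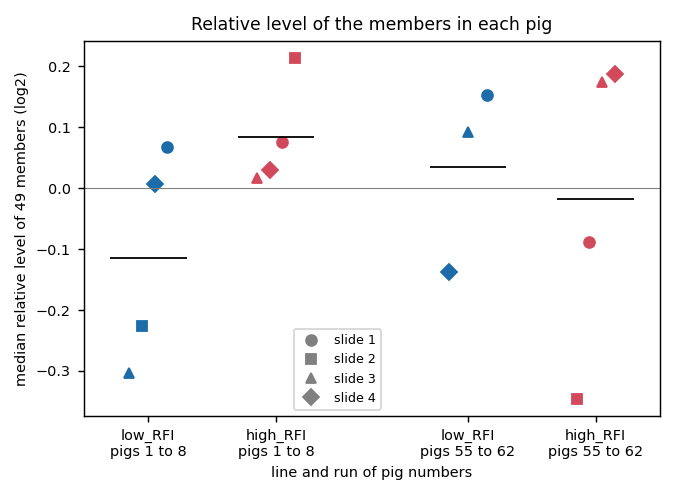
Median relative level (log2) of the 49 members in each of 15 pigs, by line and run of pig numbers, with a bar at the mean of each set and a symbol for the slide. In pigs 1 to 8 the means are -0.11 and 0.08, in pigs 55 to 62 they are 0.04 and -0.02, and replicate 5 of high_RFI lies lowest of all pigs.

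Most genes with several probes gave 1 sign. Of 31 such members, 23 had line differences of 1 sign at every tested probe, among them ATP5F1 with 12 probes, ATP5B with 11, ATP5O with 10, SDHB with 9 and SDHD with 7. The median correlation between probes of a gene was 0.87, and 50 of 528 pairs of probes of 1 gene (9.47%) shared a run of 30 or more bases, so that probes are not independent.

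CYCS was negative at 12 of 13 probes, from -0.34 to -0.05, and positive at 1 with 0.33 ± 0.31 SE. That is CYCS probe 2 printed above. Over their 52 bases of overlap it departs from probe 1 at 3, all within the stretch shown, as A9G, C11G and T21C counted from the 5′ end of the stretch. Probe 1 ran from 5.70 to 6.84 over the pigs and probe 2 from 4.005 to 6.49, and their correlation was -0.37. Probe 2 was lowest in replicate 8 of high_RFI, where CYCS probe 1 stood 0.57 above its mean. NDUFB9 had 4 probes from -0.52 to 0.65. Probes 1 and 2 shared a run of 50 of 60 bases and correlated at 0.91. Probe 1 ran from 6.29 to 7.39 with a line difference of -0.24 ± 0.15 SE, and probe 2 from 5.21 to 7.45 with -0.52 ± 0.27 SE. Probe 2 extends 10 bases past the shared run. The positive NDUFB9 probe read from -3.09 to -0.26. ATP5G2 gave 0.02 at 1 probe and 0.99 ± 0.29 SE at the other, whose level ran from -3.27 to -0.80 (limma adjusted p over all probes 0.490).

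Genes of neighbouring pathways were read from lists of the same kind. The citric acid cycle supplies NADH and succinate. Its list had 14 of 20 genes tested, which included PDHA1, DLAT and PC of pyruvate metabolism and the cytosolic MDH1. None passed, 13 of 14 lay on the side of high_RFI and their median was -0.10. IDH2, the mitochondrial NADP-dependent isocitrate dehydrogenase, and DLD, the dihydrolipoamide dehydrogenase, gave -0.22 ± 0.12 SE and -0.27 ± 0.15 SE. The mean relative level of the list correlated with that of the members at 0.94, at 0.91 over pigs 1 to 8 and 0.99 over pigs 55 to 62. The mitochondrially encoded subunits, partners of the members in the same complexes, had 13 tested, none passed, 6 lay on the side of high_RFI and the median was 0.00. Their correlation with the members was 0.84. The list of assembly factors, which also held the ATP synthase inhibitor ATPIF1, had 9 of 54 tested. None was called, the median was 0.01 and the correlation 0.76. Its single genes ran from -0.08 for NUBPL to 0.87 for ATPIF1 in their correlation with the members. For ubiquinone, haem and carriers 15 of 31 were tested and none passed, with a median of -0.11 and a correlation of 0.87. Within that list COQ2, which attaches the side chain of ubiquinone, gave 0.52 ± 0.17 SE and COQ5, a methylase of its ring, -0.43 ± 0.18 SE. The list of regulators of mitochondrial biogenesis also held the uncoupling proteins UCP2 and UCP3 and the mitochondrial creatine kinase CKMT2. Of its 14 tested genes 1 passed, MTERFD1, a mitochondrial transcription regulator. It averaged 1.75 in the 7 low_RFI pigs (SD 0.17) and 2.32 in the 8 high_RFI pigs (SD 0.13), with a limma adjusted p of 0.0351. The call was lost under 17 of 29 alternatives: in 7 of 14 changes of processing and with 10 of 15 single pigs left out. Over all 29 its limma adjusted p ran from 0.0109 to 0.345 and its difference from -0.60 to -0.48. That list correlated with the members at 0.24 and MTERFD1 at 0.52.

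Among all other genes, CHCHD10, a mitochondrial intermembrane space protein, was most like the members, with Pearson r 0.96 and Spearman rho 0.94. It was followed by DLST of the citric acid cycle at 0.94, the aspartate aminotransferase GOT1 at 0.90, CGI-51 at 0.90, QIL1 at 0.88 and the pyruvate dehydrogenase subunit PDHA1 at 0.88. Without the 2 pigs farthest from the median, CHCHD10 gave 0.92 and PDHA1 0.74. The lowest were the growth factor binding protein IGFBP3 at -0.81, the liver-type carnitine palmitoyltransferase CPT1A at -0.79, CPNE9 at -0.79 and TBC1D10A at -0.79, and without those pigs IGFBP3 gave -0.53. The median over all 4551 genes was 0.02.

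Markers of fibre types and of other cells in the muscle moved with the members to different degrees. Slow fibre markers, of which 12 of 16 were tested, had a mean relative level from -0.91 to 0.89 in low_RFI and from -0.81 to 0.48 in high_RFI, and correlated with the members at 0.55, or 0.36 without the 2 farthest pigs. Their 12 line differences had a median of -0.25, 11 of them on the side of high_RFI and none passing. Fast fibre markers (12 of 15) ran from -0.20 to 0.21 and from -0.18 to 0.17 in the same order, with a correlation of 0.42. Muscle identity markers (15 of 18) ran from -0.17 to 0.15 and from -0.20 to 0.17, with a correlation of 0.66. Most of them also stood in a fibre list, such as MYH4 and TNNI2 (fast) and MYH7 and MB (slow), so these lists are not separate. Correlations were -0.16 for adipocyte markers (12 of 15 tested), -0.32 for leukocyte markers (8 of 15), 0.27 for endothelium (7 of 10), -0.05 for matrix (10 of 12), 0.14 for nerve (4 of 10) and 0.00 for erythrocyte markers (2 of 10). The 2 erythrocyte genes were dim. CA1 averaged -3.72 in low_RFI and -3.76 in high_RFI, and HBE1, above background on 11 arrays, -4.38 and -4.30. They say little of blood content. The share of spots well above background correlated with the relative level at -0.21 and the 75th percentile of signal at -0.35. The 2 pigs whose relative level lay farthest from its median were replicate 5 of high_RFI and replicate 3 of low_RFI. Without them these correlations became 0.13 and -0.25, and leukocyte markers gave -0.04, endothelium 0.05 and erythrocyte markers 0.30. Within pigs 1 to 8 leukocyte markers gave -0.69, endothelium 0.00, fast fibre 0.48, muscle identity 0.62 and the 75th percentile of signal -0.09. Within pigs 55 to 62 these were -0.43, 0.60, 0.71, 0.91 and -0.60, in that order. The part of any of these in the line differences was not tested.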

How the data were processed

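Per the file headers, scanner files hold intensity values from Feature Extraction 10.7.3.1, background-subtracted and not normalized between arrays, beside other columns that flag spots. The deposited table holds log2 values by the authors (R 2.10.0, per the submitters' processing notes); it equalled log2 signal minus each array's median over 29364 listed spots and served as an alternative. Control spots and spots flagged non-uniform were left out, and spots of a probe averaged. Of 43603 probes, 9319 were named by the files, 57 by their descriptions and 2817 by RefSeq. A gene took its tested probe of highest mean level. Probes needed 4 values per line. Lines were compared two-sided with limma 3.58.1 in R 4.3.3, Benjamini-Hochberg adjusted over all 4663 genes, and the script was tested on simulated data. Correlations are descriptions without p-values.

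Members and lists were chosen with earlier results of these data known. Genes named were, per complex, up to 4 of smallest p and 3 of largest SD, a fixed set of isoforms, up to 6 with probes of both signs, up to 3 of smallest p per list, and 6 most like and 4 least like the members. Other members named are examples picked with their values in view. Other settings tried changed background correction, scaling, deposited values, dim and outlier spots, slide, pig run, replicate number, limma settings, probe choice and each array left out. Within-run medians under other settings were chosen after seeing the data. The values of 1 member are not reported here, though it counts among the 49.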

Additional observations from a re-analysis of the deposited data

Results flagged for a closer look

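Within a line, a single pig stood apart from the rest in 6 of 64 sets of levels examined (31 named genes and the median of the members, in each line). Chance flags about 1 in 20 independent sets. Some genes were named for a large spread over these same pigs, and members move together. The count is therefore a description and cannot be held against that rate. In high_RFI, replicate 5 was lowest for COX7A1 (level 7.70, nearest pig 8.09), COX8H (8.12, nearest 8.43), NDUFB9 (6.29, nearest 6.94) and UQCRFS1 (5.27, nearest 5.78). Its distance to the nearest pig was 0.61, 0.582, 0.589 and 0.573 of the line's whole range, in that order. Replicate 2 of high_RFI was highest for ATP5J (-0.09, nearest -0.54; share of the range 0.615), and replicate 4 of high_RFI was highest for NDUFS1 (-3.51, nearest -4.43; 0.58). Replicate 5 of high_RFI was also the lowest pig in the relative level of the members.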

How the results depend on the processing

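No member was called under any of the 29 alternatives, and the smallest limma adjusted p of a named gene among them was 0.448. The median line difference of the members stayed negative, from -0.12 to -0.02 over changes of processing and from -0.13 to -0.02 when single pigs were left out. With normexp background correction it was -0.02, as was the median over all genes. Members higher in high_RFI numbered 28 to 43 over changes of processing and 35 to 43 when single pigs were left out. With 1 pig left out, the median ran from -0.25 to -0.12 within pigs 1 to 8 and from -0.04 to 0.15 within pigs 55 to 62. With the replicate block the median was -0.05 and 39 members were higher in high_RFI; same-numbered pigs correlated at -0.04 to 0.30 in their deviations, 2 of 7 best with their own number, and the numbers were not taken as pairs. Line by run interaction calls stayed at 0 for members. Of 31 named genes, 20 kept their sign throughout; none of the others had passed a test. Under normexp ATP5G1 gave 0.00701, ATP5I 0.00078, COX7A1 0.0102, NDUFA4 0.00739, NDUFV2 0.0260 and SDHB 0.00892. ATP5A1 gave -0.0238 with quantile normalization and -0.0352 with array weights, where COX8A gave 0.17. NDUFS1 gave 0.00104 with median scaling, 0.0404 with slide as a fixed block and 0.00140 as a random block. Leaving out single pigs gave ATP5A1 from -0.0305 to 0.104, ATP5G1 -0.134 to 0.0157, COX6A1 -0.0122 to 0.0899, COX7C -0.0950 to 0.0018 and NDUFS1 -0.136 to 0.165. The cause was not tested. The number of pigs limits precision: the median SE of a member was 0.12.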
